A study of Mus musculus with 56 samples.

Results

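The genes of 9 nuclear receptors were followed here in the livers of hypothyroid, hyperthyroid and NCOR1 mutant mice. They encode the 3 receptors for fatty acids (Ppara, Ppard and Pparg), both receptors for oxysterols (Nr1h2 and Nr1h3), the bile acid receptor (Nr1h4), a receptor that binds phospholipids (Nr5a2), a receptor of the ROR family (Rora) and the estrogen receptor alpha (Esr1). The members were chosen by name, and all 9 were found among 23813 genes of the RNA table. Each gene is represented by its first listed RefSeq transcript.

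Nuclear receptors are transcription factors whose activity is set by small molecules. Many of them, such as the PPARs, LXRs and FXR, bind DNA together with a retinoid X receptor (RXR), as the thyroid hormone receptor (TR) does. In liver, PPARα drives fatty acid oxidation, LXRs drive cholesterol export and lipogenesis, FXR and LRH-1 control bile acid synthesis, and RORα acts in the clock and in sterol metabolism. NCOR1 is a corepressor that TR and several of these receptors bind and that recruits the histone deacetylase HDAC3.

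RNA was sequenced from 4 independent livers per group. Hypothyroid WT mice received propylthiouracil (PTU) in a low iodine diet, so that their thyroid made little hormone, and hyperthyroid WT mice received the same diet and injections of triiodothyronine (T3) on the last days, in place of vehicle. Hypothyroid L-NCOR1ΔID mice (genotype L-NCORdeltaID) received PTU and express in the liver only, on a mixed C57BL/6;129S background, an NCOR1 that lacks the domains for interaction with TR, so that all 3 groups were treated with PTU. All mice were male. Their age and the strain of the WT mice used for RNA are not given in the labels, and a group of L-NCOR1ΔID mice with T3 was not analysed here. The paper gives mean ages over all its mice of a group, lower for L-NCOR1ΔID than for WT mice with overlapping SDs. Age, and strain if it differed, cannot be told apart from genotype. Values are RPKM, reads scaled to transcript length and library size, and every library combines runs from 2 instrument models.

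By the depth recovered from the steps between low values, 0.1 RPKM stood for 2.9 to 3.78 reads per kilobase of transcript in hypothyroid WT, 2.12 to 2.61 in hyperthyroid WT and 3.8 to 4.27 in L-NCOR1ΔID libraries, so that the hyperthyroid libraries were the shallowest. Dio1, a T3-induced deiodinase, was at 459 to 641 RPKM in hyperthyroid WT, at 0.719 to 57.7 RPKM in hypothyroid WT and at 0.567 to 20.9 RPKM in L-NCOR1ΔID libraries. Ncor1 itself was at 14.1 to 15.6 RPKM in hypothyroid WT and 12.1 to 13.9 RPKM in L-NCOR1ΔID libraries, a value over the whole transcript that does not show which part is deleted. The 8 hepatocyte markers summed to 38500 to 50053 RPKM in hypothyroid WT, 20356 to 29022 RPKM in hyperthyroid WT and 32181 to 36409 RPKM in L-NCOR1ΔID libraries. With T3, 2 of the 8 were lower by the test used below, the secreted proteins Alb (log2 fold change −1.16) and Ttr (−1.55), and 1, Hnf4a, was higher (0.42). One library stood apart: in hyperthyroid WT replicate 3 the 5 pancreatic acinar markers summed to 663 RPKM, against 0.574 to 15.9 RPKM in the other 11 libraries, and Prss1 of that list was at 0 in every library. The 6 Kupffer cell markers, of liver macrophages, summed to 132 to 218 RPKM in hyperthyroid WT, 42.2 to 59.9 RPKM in hypothyroid WT and 47.3 to 129 RPKM in L-NCOR1ΔID libraries, and all 6 were higher with T3 by the test used below. In whole liver, fewer cells of a type and less RNA per cell cannot be told apart. Sums of stellate cell markers were 14.8 to 23 RPKM in hypothyroid WT, 24.2 to 32.3 RPKM in hyperthyroid WT and 18.8 to 42.6 RPKM in L-NCOR1ΔID livers. The part of these cells in the results below was not tested.

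The loci are shown first by sequence. Acetylated regions are those where histone H3 carried acetylation at K9 or K27 in hypothyroid or hyperthyroid WT livers. Only their positions on mm9 were used here, so they mark the active chromatin of both conditions together. The paper's supplementary data also hold averaged counts and fold changes for such regions, and their overlap with TR binding sites and HDAC3. Those values were not used here. All 9 genes had an annotated start within such a region, as did 90.3% of the 11812 tested genes with a position in GENCODE M1. Nr1h4 was covered over 87.1% of its length, and the longest region over it spanned 37321 bp. Ppara was covered over 72.9% and Ppard over 59.5% of its length, whereas Esr1, with 11 regions over 393626 bp, was covered over 10.5%. Around the outermost start, Ppara had 15 regions within 100 kb and Rora had 1. The longest of the 22 regions over Rora, with 56889 bp, covered an inner start. The median was 11 regions for the 9 genes and 7 for the tested genes.

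TR binds preferably to a direct repeat of the half-site AGGTCA with a spacing of 4 bases (DR4). A search of both strands for 11 or more matching bases of 12 found 1 match each in the regions over or within 100 kb of Ppard, Ppara and Nr1h4, and none for the other 6 genes. They are printed 5′ to 3′ on the strand of the match with 12 flanking bases on each side, because they are the only matches found near the 9 genes. Capitals mark the half-sites.
Ppard, chr17:28376552-28376591, minus strand: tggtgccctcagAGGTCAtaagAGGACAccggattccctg
Ppara, chr15:85536526-85536565, plus strand: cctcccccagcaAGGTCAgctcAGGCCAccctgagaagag
Nr1h4, chr10:89096383-89096422, minus strand: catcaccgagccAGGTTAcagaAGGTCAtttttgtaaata
The match at Ppard lies in an intron, 6872 bp downstream of the outermost start, in an acetylated region of 16323 bp that also holds that start. Those of Ppara and Nr1h4 are intergenic, at −29449 bp and −100072 bp from the start. Such a match is frequent in long regions: 19.4% of the 861 regions within 20% of the length of the Ppard region hold one, and 13.33% and 22.28% of those like the other 2. Over all 37200 regions the share was 4.48%, with 12.62 matches per Mb. The regions searched for the 9 genes held from 24.6 kb (Nr1h2) to 138.7 kb (Ppara) per gene. A match shows only that these letters are there.

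**Figure D1:**
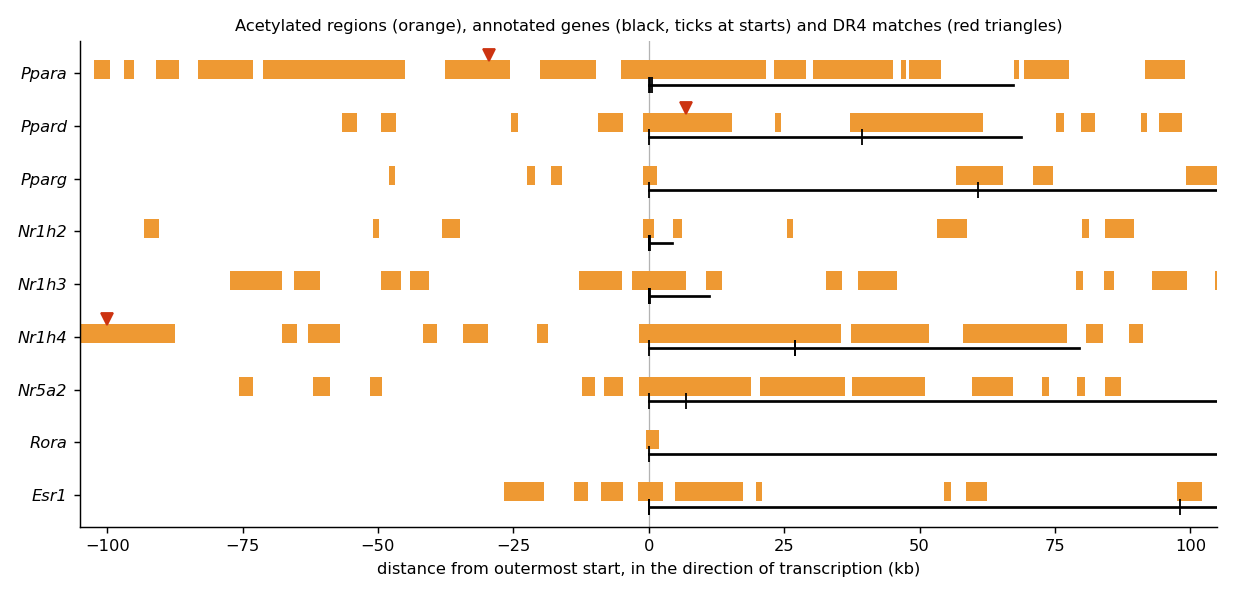
Acetylated regions (orange), annotated gene (black line with ticks at starts) and DR4 matches (red triangles) by distance in kb from the outermost start of each gene, drawn in the direction of transcription. A region covers each of the 9 outermost starts, and the match at Ppard lies 6872 bp downstream within the region of the start.

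The 250 bases upstream of the outermost start are given for the 4 members that differed most, Ppard, Esr1 and Pparg with T3 and Nr1h4 in L-NCOR1ΔID mice. They were read from mm9 on the strand of the gene, and capitals mark AGGTCA on either strand (TGACCT where it is on the other strand).
Ppard, chr17:28369449-28369698, plus strand: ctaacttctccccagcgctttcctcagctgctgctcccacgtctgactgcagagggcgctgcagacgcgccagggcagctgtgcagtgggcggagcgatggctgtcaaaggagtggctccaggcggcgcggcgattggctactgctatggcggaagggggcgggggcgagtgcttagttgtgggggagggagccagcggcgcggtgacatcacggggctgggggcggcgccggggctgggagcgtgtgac
Esr1, chr10:5734553-5734802, minus strand: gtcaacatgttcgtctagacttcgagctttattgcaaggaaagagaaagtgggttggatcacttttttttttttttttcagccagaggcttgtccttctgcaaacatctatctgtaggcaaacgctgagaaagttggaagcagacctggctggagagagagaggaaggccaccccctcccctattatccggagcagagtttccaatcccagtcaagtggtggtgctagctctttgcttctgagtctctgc
Pparg, chr6:115310989-115311238, plus strand: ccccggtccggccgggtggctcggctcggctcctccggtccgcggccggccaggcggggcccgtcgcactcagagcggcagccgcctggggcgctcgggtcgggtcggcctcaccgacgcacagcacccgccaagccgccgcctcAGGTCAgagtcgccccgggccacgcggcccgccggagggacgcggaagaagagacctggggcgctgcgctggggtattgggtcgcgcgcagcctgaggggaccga
Nr1h4, chr10:88996331-88996580, minus strand: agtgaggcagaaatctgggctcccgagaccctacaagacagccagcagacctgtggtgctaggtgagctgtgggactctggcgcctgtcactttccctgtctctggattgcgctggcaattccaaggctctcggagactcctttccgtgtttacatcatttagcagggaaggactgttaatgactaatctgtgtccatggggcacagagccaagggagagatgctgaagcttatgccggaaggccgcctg
The promoter of Pparg is rich in G and C, at 78.4%, and holds 1 half-site, while that of Esr1 has 47.6% and none. Of the 9 outermost promoters, those of Pparg and Nr5a2 hold a half-site, which 11.3% of 11812 promoters of tested genes also do.

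In hypothyroid WT livers the 9 genes spanned a wide range of RPKM. Nr1h4 was highest with 60.6 ± 1.72 RPKM (SD, n = 4), followed by Nr1h3 with 53.3 ± 3.54 and Ppara with 48.3 ± 2.13. Nr5a2 (14.5 ± 1.85), Nr1h2 (14.4 ± 1.80) and Rora (11.3 ± 1.52) formed the middle, and Pparg (4.95 ± 1.01), Ppard (2.13 ± 0.317) and Esr1 (1.75 ± 0.466) were lowest. The libraries of neighbours in this order overlapped for Nr1h3 and Ppara, for Nr5a2 and Nr1h2 and for Ppard and Esr1 only. In hyperthyroid WT livers Ppard stood at place 5 and Esr1 at place 7 of the 9, with Pparg last, and the ranges from Ppard through Nr5a2 and Esr1 to Rora overlapped from one to the next. In L-NCOR1ΔID livers Nr1h3, Ppara and Nr1h4 overlapped from one to the next at the top. Nr1h3 (42.3 to 49.2 RPKM) did not overlap Nr1h4 (37.2 to 41 RPKM) there. Pparg, Esr1 and Ppard overlapped at the bottom. At these depths the lowest value of Esr1 rests on 39 reads and that of Pparg on 41 reads per kilobase of transcript, whereas Nr1h3 had at least 1385.

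**Figure D2:**
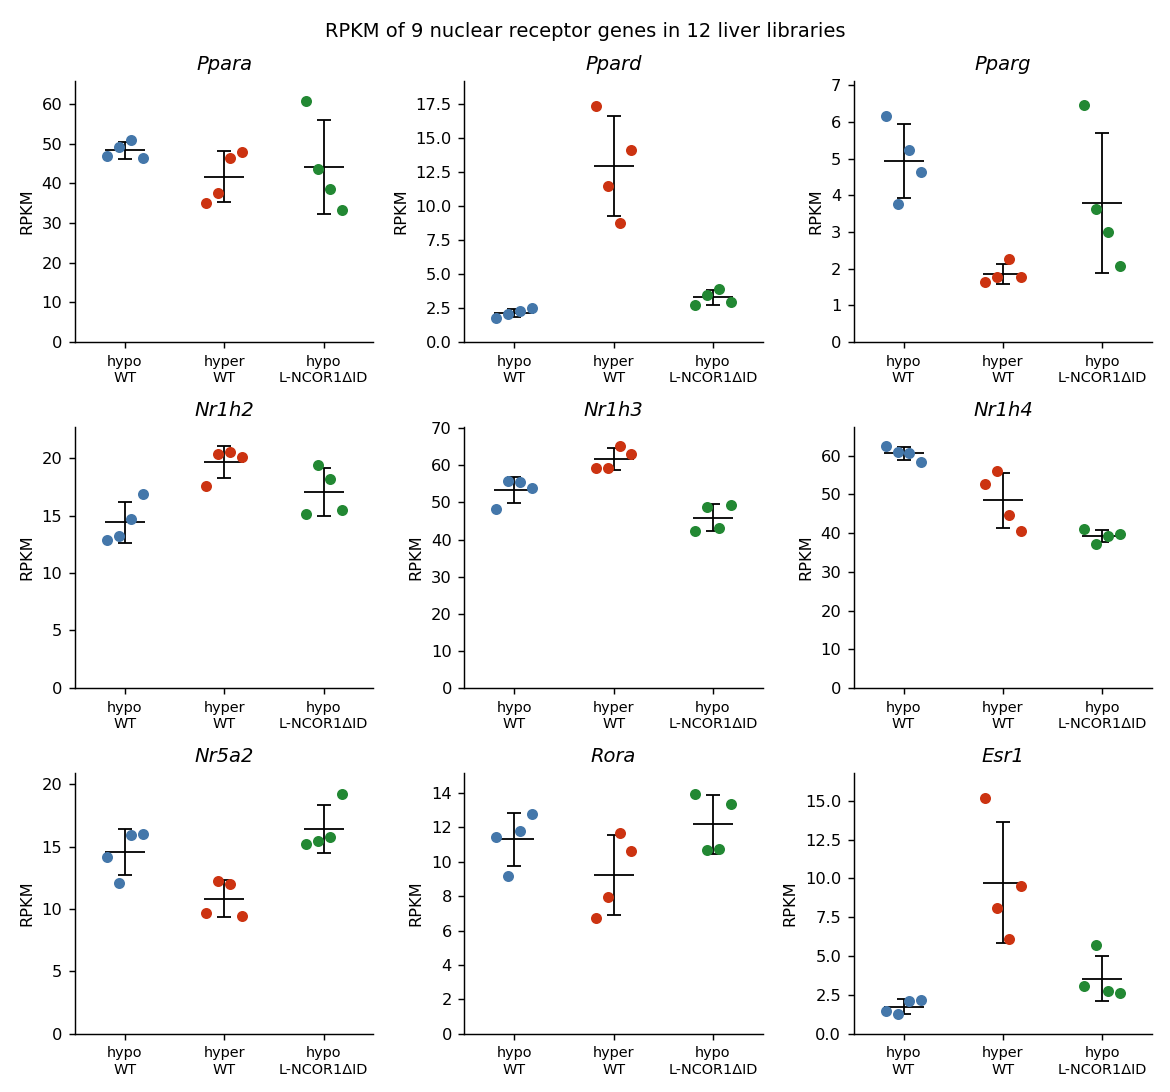
RPKM of the 9 genes (y axes, starting at 0 and differing between genes) in the 4 livers of each group, drawn from left to right as replicates 1 to 4. Points are livers, and bars give the mean ± SD. The hyperthyroid livers lie above all others for Ppard and Esr1, and the L-NCOR1ΔID livers lie below all hypothyroid WT livers for Nr1h4.

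The question of the first comparison is which genes respond to T3. Ppard and Esr1 rose, Pparg fell, and Nr1h2 rose slightly, while Ppara, Nr1h3, Nr1h4, Nr5a2 and Rora did not pass the test. Differences are given as log2 fold changes of RPKM + 0.1 with their SE, tested with limma and adjusted over all genes, and a gene passed at an adjusted p under 0.01. Thus 4 of 9 genes passed, where 32.2% of 13941 tested genes did. Of these, 3 were higher with T3 (24.5% of all genes) and 1 was lower (7.71%). Ppard, Esr1 and Pparg also changed by more than 1 on the log2 scale, as did 11.8% of all genes. For 6 of 9 genes the groups did not overlap, which held for 46.6% of all genes.

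Ppard encodes PPARδ, a fatty acid receptor found in most tissues. It was at 1.74, 2.05, 2.27 and 2.48 RPKM in hypothyroid WT livers and at 17.3, 11.5, 8.75 and 14.1 RPKM in hyperthyroid WT livers. Every hyperthyroid liver was therefore above every hypothyroid one, and they differed among themselves more than the hypothyroid livers did. The means were 2.13 ± 0.317 and 12.9 ± 3.65 RPKM, a ratio of 6.05 and a log2 fold change of 2.51 ± 0.20 (limma adjusted p = 2.8e-05).

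Esr1, the estrogen receptor through which estrogens act on hepatocytes, was at 1.46, 1.25, 2.12 and 2.17 RPKM in hypothyroid WT livers. It was at 15.2, 8.11, 6.13 and 9.53 RPKM in hyperthyroid WT livers. The groups did not overlap, and the hyperthyroid livers stood in the same order for Esr1 as for Ppard, with replicate 1 highest, then 4, 2 and 3. The log2 fold change was 2.37 ± 0.28 (limma adjusted p = 1.9e-04), from a mean of 1.75 ± 0.466 to 9.73 ± 3.88 RPKM. The lowest Ppard and Esr1 values with T3 were in replicate 3, which carried the pancreatic markers, and without it the log2 fold changes were 2.68 and 2.56.

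Pparg, the receptor that drives fat storage in adipocytes and is low in healthy liver, was the only member to pass as lower. It was at 6.16, 3.76, 5.25 and 4.64 RPKM in hypothyroid WT and at 1.63, 1.78, 2.25 and 1.77 RPKM in hyperthyroid WT livers. Each hyperthyroid liver was below each hypothyroid one. The log2 fold change was −1.35 ± 0.16 (limma adjusted p = 2.1e-04), and the second listed transcript, which shares reads with the first, gave −1.40. The 5 adipocyte markers summed to 0 to 2.73 RPKM in hypothyroid WT and 0.216 to 3.5 RPKM in hyperthyroid WT livers.

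Nr1h2 encodes LXRβ and Nr1h3 encodes LXRα, which is the main LXR of liver. Nr1h2 was at 12.9, 13.2, 14.7 and 16.9 RPKM in hypothyroid WT and at 17.6, 20.3, 20.6 and 20.1 RPKM in hyperthyroid WT livers, with no overlap. Its log2 fold change was 0.45 ± 0.10 (limma adjusted p = 0.0049). All genes had a median log2 fold change of 0.23 in this comparison, and after scaling each library by the median of gene ratios, which leaves a median of 0.04, that of Nr1h2 was 0.25 and did not pass (adjusted p = 0.065). Without any of 6 of the 8 livers, 1 at a time, Nr1h2 also missed the threshold, with log2 fold changes between 0.40 and 0.53 over all 8 such fits. Nr1h3 was at 48.2, 55.8, 55.5 and 53.9 RPKM in hypothyroid WT and at 59.2, 59.3, 65.3 and 63.0 RPKM in hyperthyroid WT livers. Although the groups did not overlap, its log2 fold change of 0.21 ± 0.07 did not pass (adjusted p = 0.033) and became 0.01 after the scaling.

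Nr1h4, Nr5a2, Rora and Ppara had lower means with T3, and none of these passed. Nr1h4 encodes FXR, the sensor of bile acids, and was at 62.4, 61.1, 60.7 and 58.3 RPKM in hypothyroid WT and 52.6, 56.0, 44.6 and 40.5 RPKM in hyperthyroid WT livers. These did not overlap, and the log2 fold change was −0.33 ± 0.10 (limma adjusted p = 0.023). Nr5a2 encodes LRH-1, which acts on bile acid genes and is also expressed in pancreas, and was at 14.1, 12.1, 15.9 and 16.0 RPKM without T3 and 9.64, 12.2, 12 and 9.47 RPKM with it. One pair of livers overlapped, and its log2 fold change was −0.42 ± 0.12 (limma adjusted p = 0.019), or −0.47 without hyperthyroid replicate 3.

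Rora was at 11.4, 9.19, 11.8 and 12.8 RPKM in hypothyroid WT and 6.70, 7.95, 11.7 and 10.6 RPKM in hyperthyroid WT livers. Ppara, the receptor that drives fatty acid oxidation in fasting, was at 46.8, 49.2, 50.8 and 46.3 RPKM and with T3 at 34.9, 37.5, 46.3 and 47.9 RPKM. Both overlapped between groups, with 95% intervals of the log2 fold change from −0.71 to 0.09 for Rora and from −0.47 to 0.02 for Ppara. After the scaling by gene ratios Ppara (−0.43), Nr1h4 (−0.54) and Nr5a2 (−0.62) passed as lower with adjusted p of 0.0047, 0.0067 and 0.0035, while Rora (−0.51, adjusted p = 0.033) did not. The counts for all genes then were 1902 higher and 1726 lower, against 3413 higher and 1075 lower as deposited. The calls of these 3 genes thus depend on the scaling, while the direction of each was the same under both.

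**Figure D3:**
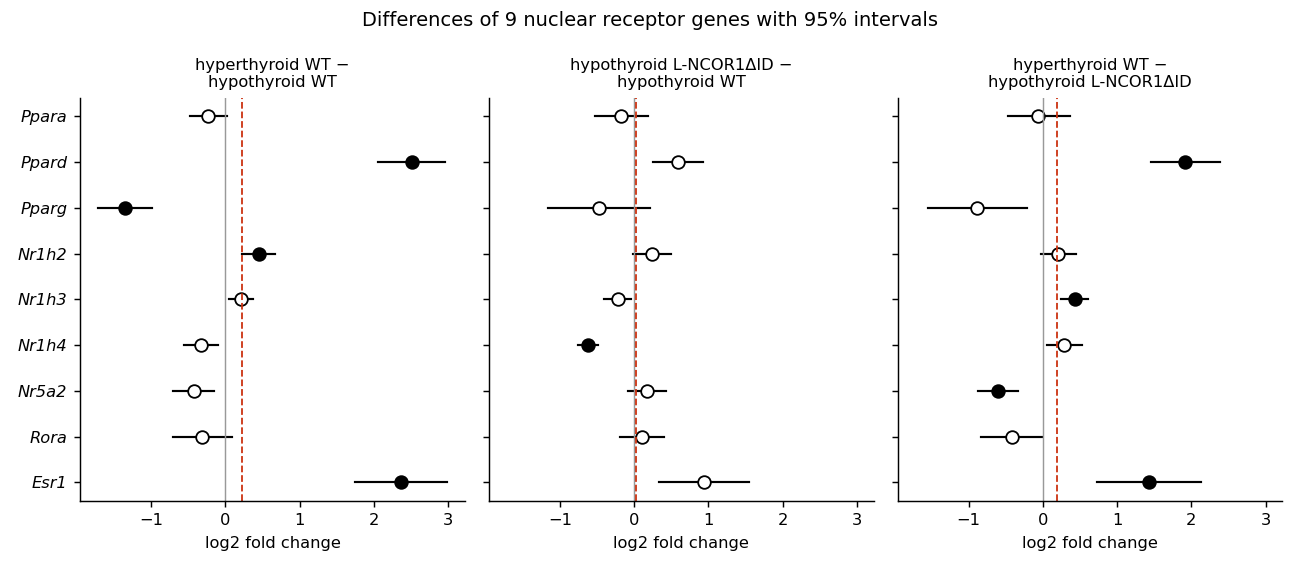
Log2 fold changes of RPKM + 0.1 (x axes) of the 9 genes in the 3 comparisons, with 95% intervals (limma, n = 4 per group). Filled points passed at an adjusted p under 0.01, and the dashed red line marks the median of all tested genes. Ppard and Esr1 lie far above that line with T3, Pparg below it, and Nr1h4 is the only filled point for L-NCOR1ΔID.

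The comparison of hypothyroid L-NCOR1ΔID with hypothyroid WT mice asks which genes differ where NCOR1 lacks the domains that TR and other receptors use. It shares its WT controls with the comparison above. Here Nr1h4 alone passed: 1 of 9 members, against 1.27% of 13790 tested genes. It was lower, as were 0.544% of all genes, and 0 of 9 members passed as higher by limma, where 0.725% of all genes did. At an unadjusted p under 0.05 there were 4 members, against 20.5% of all genes. Ppard and Esr1 were the 2 higher ones (12.8% of all genes) and Nr1h3 and Nr1h4 the 2 lower ones (7.77%).

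Nr1h4 was at 41.0, 37.2, 39.3 and 39.8 RPKM in L-NCOR1ΔID livers. All 4 were below the lowest hypothyroid WT liver at 58.3 RPKM, and the spread within each group was small, with means of 39.3 ± 1.59 and 60.6 ± 1.72 RPKM. The log2 fold change was −0.62 ± 0.06 (limma adjusted p = 8.8e-04), with a 95% interval from −0.76 to −0.49, and Nr1h4 had the 35th smallest p of all genes. Over the 8 fits without 1 liver it ranged from −0.64 to −0.60 and passed in each.

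Ppard and Esr1 were higher in all 4 L-NCOR1ΔID livers than in any hypothyroid WT liver but did not pass. Ppard was at 2.75, 3.48, 3.92 and 2.96 RPKM, and its log2 fold change was 0.59 ± 0.15 (limma adjusted p = 0.059). Esr1 was at 3.10, 5.71, 2.74 and 2.61 RPKM, with replicate 2 apart from the rest, and its log2 fold change was 0.94 ± 0.27 (adjusted p = 0.090) or 0.69 without replicate 2. That library also had the highest sum of Kupffer cell markers of its group, 129 RPKM against 47.3 to 72.3 RPKM in the other 3, and the part of this in the Esr1 value was not tested. With Nr1h4, these were 3 of 9 members whose groups did not overlap, against 13.1% of all genes.

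The other 6 genes overlapped between the 2 genotypes. Nr1h3 was at 42.3, 48.7, 43.1 and 49.2 RPKM in L-NCOR1ΔID livers (log2 fold change −0.22 ± 0.08, limma adjusted p = 0.167), with 2 livers inside the WT range. Nr1h2 was at 15.1, 19.4, 18.2 and 15.5 RPKM, Nr5a2 at 15.2, 15.4, 15.7 and 19.3 RPKM and Rora at 14.0, 10.7, 10.7 and 13.3 RPKM. Their log2 fold changes of 0.24, 0.17 and 0.11 had 95% intervals that included 0.

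Ppara and Pparg had a wide range among the mutant livers. Ppara was at 60.6, 43.5, 38.6 and 33.3 RPKM, so that its SD was 11.8 RPKM against 2.13 RPKM in hypothyroid WT, and Pparg was at 6.47, 3.63, 3.01 and 2.06 RPKM. The 4 livers ranked alike for both genes. The log2 fold changes were −0.17, with a 95% interval from −0.53 to 0.19, for Ppara and −0.47, from −1.16 to 0.22, for Pparg. Without replicate 1, the highest for both, they were −0.34 and −0.76, and neither passed.

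Hyperthyroid WT and L-NCOR1ΔID livers were then compared directly, with both genotype and treatment differing. Ppard was higher in hyperthyroid WT by 1.91 ± 0.20 on the log2 scale (limma adjusted p = 2.1e-04), Esr1 by 1.43 ± 0.31 (adjusted p = 0.0069) and Nr1h3 by 0.43 ± 0.08 (adjusted p = 0.0037). Nr5a2 was lower, with a log2 fold change of −0.60 ± 0.12 (adjusted p = 0.0049). These 4 of 9 members, 3 higher and 1 lower, compare with 21.2% of 14017 genes, 15.5% higher and 5.7% lower. They were also the 4 whose groups did not overlap, as did 38.3% of all genes. Esr1 at 1.25 (adjusted p = 0.018) and Nr1h3 at 0.25 (adjusted p = 0.032) did not pass after scaling by gene ratios, and each of Esr1, Nr1h3 and Nr5a2 lost its call in at least 3 of the 8 fits without 1 liver. Nr1h4 differed by 0.29, with a 95% interval from 0.05 to 0.53 (adjusted p = 0.061), and Pparg by −0.88, from −1.55 to −0.21 (adjusted p = 0.042).

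Partners of these receptors, such as RXRs, coactivators and corepressors, were counted next. Of 16 partners and coregulators tested, 9 were higher and 1 was lower with T3, where 24.5% and 7.71% of all genes were. Their median log2 fold change was 0.42 against 0.23 for all genes. Among the 9, Ep300 (0.38) and Med1 (0.41) rose by less than Nr1h2 (0.45), which did not pass after scaling by gene ratios. Whether the calls of this list hold after that scaling was not examined. Rxra, the main RXR of liver, was at 89.0 ± 6.32 RPKM without and 125 ± 9.23 RPKM with T3 and rose by 0.49 ± 0.08 on the log2 scale (adjusted p = 0.0012 by limma). The coactivator gene Ncoa1 rose by 0.71 ± 0.11 on the log2 scale. The 1 lower gene was Nr0b2, which encodes the repressor SHP. In L-NCOR1ΔID livers 0 of 16 passed by limma, where 1.27% of all genes did. At an unadjusted p under 0.05 there was 1 lower, against 7.77% of all genes, and the median log2 fold change of the 16 was −0.05.

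Among 40 other nuclear receptor genes, 30 were expressed highly enough to be tested, and 7 of them were higher and 5 lower with T3. The shares over all tested genes were 24.5% higher and 7.71% lower. Nr1i3, the gene of the xenobiotic receptor CAR, was at 173 ± 25.5 RPKM without and 44.4 ± 8.81 RPKM with T3, a log2 fold change of −1.97 ± 0.15 (adjusted p = 2.3e-05 by limma). It was also the only one of the 30 to pass in L-NCOR1ΔID livers, where 1.27% of all genes did. There it was lower at 81.7 ± 6.06 RPKM (log2 fold change −1.07 ± 0.11, limma adjusted p = 0.0014). Nr3c1, the glucocorticoid receptor gene, was higher with T3 by 0.73 ± 0.08. The median log2 fold change of these 30 genes was 0.08 with T3.

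Known target genes of each receptor were counted as lists, some of which share genes (Abcg5, Abcg8, Cyp7a1, Cyp8b1 and Nr0b2 stand in more than 1). The lists were not split by the direction in which a receptor acts, so their counts do not measure its activity. Over all tested genes, 24.5% were higher and 7.71% lower with T3. In L-NCOR1ΔID livers 0.725% were higher and 0.544% lower, so a count of 0 there says little about a list. Calls of these lists after scaling by gene ratios were not examined. Of 20 PPAR target genes, 6 were lower and 2 higher with T3, with a median log2 fold change of −0.30. Acot1, a thioesterase of fatty acid metabolism, fell from 7.29 ± 0.90 to 0.725 ± 0.349 RPKM (log2 fold change −3.26 ± 0.28), and Acadm, a dehydrogenase of β-oxidation, from 196 ± 25.9 to 80.7 ± 7.09 RPKM (−1.27 ± 0.11). Plin2, which coats lipid droplets, rose from 99.1 ± 9.56 to 231 ± 56.9 RPKM (1.19 ± 0.16). The limma adjusted p of these 3 were at most 4.6e-04.

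In L-NCOR1ΔID livers 1 PPAR target gene was higher and 1 lower. Ehhadh, an enzyme of peroxisomal β-oxidation, was at 93.4, 87.5, 85.5 and 78.8 RPKM in hypothyroid WT and 395, 246, 250 and 216 RPKM in L-NCOR1ΔID livers (log2 fold change 1.64 ± 0.17, limma adjusted p = 0.0014). Creb3l3, a transcription factor of hepatic lipid metabolism, fell from 139 ± 7.85 to 88.6 ± 8.95 RPKM, by limma a log2 fold change of −0.65 ± 0.09 (adjusted p = 0.0048). Fgf21, a hormone of the fasting response, was at 0.136 to 0.364 RPKM in all 4 L-NCOR1ΔID livers. It was at 1.83 to 20.6 RPKM in hypothyroid WT and at 8.80 to 122 RPKM in hyperthyroid WT livers. Against hypothyroid WT it passed neither in L-NCOR1ΔID livers (log2 fold change −3.94 ± 0.64, limma adjusted p = 0.012) nor with T3 (2.84 ± 0.95, adjusted p = 0.034). Between hyperthyroid WT and L-NCOR1ΔID livers, where genotype and treatment both differ, it differed by 6.77 ± 0.76 (limma adjusted p = 2.7e-04).

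Of 14 LXR target genes, 3 were higher and 0 lower by limma in L-NCOR1ΔID livers. At an unadjusted p under 0.05, 9 were higher and 1 lower there, against 12.8% and 7.77% of all genes. With T3, 2 of the 14 were higher and 1 lower. Abcg5 and Abcg8, which together form the sterol exporter of the canalicular membrane, were higher both with T3 and in L-NCOR1ΔID livers. Abcg5 was at 42.2 ± 5.50 RPKM in hypothyroid WT, 110 ± 10.9 RPKM in hyperthyroid WT and 92.2 ± 8.31 RPKM in L-NCOR1ΔID livers, with log2 fold changes of 1.38 ± 0.11 and 1.13 ± 0.11. Abcg8 differed by 1.55 ± 0.11 and 1.08 ± 0.14. The limma adjusted p of these 4 differences were at most 0.0042.

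Scd1, the stearoyl-CoA desaturase of lipogenesis, was the other LXR gene to pass in L-NCOR1ΔID livers. It was at 828 to 1046 RPKM in hypothyroid WT, 180 to 720 RPKM in hyperthyroid WT and 3745 to 8000 RPKM in L-NCOR1ΔID livers. Its log2 fold change was 2.53 ± 0.23 in L-NCOR1ΔID livers (limma adjusted p = 6.9e-04), and between hyperthyroid WT and L-NCOR1ΔID livers −3.94 ± 0.51 (adjusted p = 5.5e-04). The median log2 fold change of the 14 LXR genes was 0.78 in L-NCOR1ΔID livers, against 0.03 for all genes, and 0.27 with T3.

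Of 13 tested FXR target genes, 5 were higher and 2 lower with T3. By limma 0 passed in L-NCOR1ΔID livers, where Nr1h4 itself was lower and 1.27% of all genes passed. At an unadjusted p under 0.05 there were 3 higher and 2 lower of the 13 in L-NCOR1ΔID livers, against 12.8% and 7.77% of all genes. Abcb4, the phospholipid exporter of bile, rose from 40.2 ± 8.94 to 107 ± 15.4 RPKM, Baat, which conjugates bile acids, from 93.6 ± 6.88 to 147 ± 9.62 RPKM and Osgin1 from 32.9 ± 12.2 to 234 ± 54.1 RPKM. The limma adjusted p of these 3 were at most 2.3e-04. The 2 lower genes were Sdc1 (log2 fold change −1.18 ± 0.16, limma adjusted p = 3.9e-04) and Nr0b2 (−1.11 ± 0.21, adjusted p = 0.0025). Cyp8b1, which sets the share of cholic acid and was chosen after its values were seen, was at 44.2 ± 9.88 against 100 ± 36.2 RPKM in L-NCOR1ΔID and hypothyroid WT livers (log2 fold change −1.14 ± 0.26, limma adjusted p = 0.042). With T3 it was at 49.4 ± 16 RPKM (−1.02 ± 0.31, limma adjusted p = 0.021), and neither difference passed. Hyperthyroid WT and L-NCOR1ΔID livers differed by 0.12 ± 0.27 for Cyp8b1 (limma adjusted p = 0.664). Cyp7a1, the rate-limiting enzyme of bile acid synthesis, was at 2.7 to 18 RPKM in L-NCOR1ΔID and 16.3 to 39.5 RPKM in hypothyroid WT livers, which overlap (adjusted p = 0.066).

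Of 10 LRH-1 target genes, 4 were higher and 1 lower with T3, and 2 were higher in L-NCOR1ΔID livers, which were Abcg5 and Abcg8. Nr0b2 was at 31.7 ± 3.21 RPKM without and 15.1 ± 4.59 RPKM with T3, a log2 fold change of −1.11 ± 0.21 (adjusted p = 0.0025 by limma). Of 11 tested ROR target genes, 6 were higher and 0 lower with T3 by limma, and their median log2 fold change was 1.40. At an unadjusted p under 0.05 these counts were 6 and 1. Shares of all genes at that p by direction were not counted for T3. In that comparison 6227 of 13941 genes had a limma p no larger than that of Nr1h3 (0.015). Sult1e1, a sulfotransferase that inactivates estrogens, rose from 0.705 ± 0.301 to 91.7 ± 66.5 RPKM (6.52 ± 0.60), Insig2, a brake on sterol synthesis, from 44.4 ± 8.80 to 158 ± 45.8 RPKM (1.81 ± 0.20) and Clock from 3.30 ± 0.436 to 8.99 ± 1.86 RPKM (1.40 ± 0.16). In L-NCOR1ΔID livers the clock gene Arntl alone passed as higher, at 2.69 ± 0.732 against 0.671 ± 0.277 RPKM. Its log2 fold change there was 1.87 ± 0.27 (limma adjusted p = 0.0073). Arntl was also among the 6 genes higher with T3, by 2.01 ± 0.28 (limma adjusted p = 5.2e-04). Between hyperthyroid WT and L-NCOR1ΔID livers it differed by 0.13 ± 0.27 and did not pass (limma adjusted p = 0.636).

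Of 8 tested estrogen receptor target genes, 3 were higher and 1 lower with T3. Greb1, a classical estrogen-induced gene, was at 0.01 to 0.025 RPKM in hypothyroid WT, 3.93, 1.68, 0.622 and 1.58 RPKM in hyperthyroid WT and 0.009 to 0.016 RPKM in L-NCOR1ΔID livers. Replicate 1 was highest and replicate 3 lowest with T3, as for Esr1. Greb1 reached the minimum of 0.1 RPKM in 4 livers through the hyperthyroid group alone, so that it had to differ, and its place among the 3 higher genes is no support for that count. Ccnd1, the gene of the cell cycle regulator cyclin D1, rose from 2.67 ± 0.602 to 17.2 ± 5.29 RPKM (2.62 ± 0.22). Cxcl12, a chemokine, fell both with T3 (−0.67 ± 0.10) and in L-NCOR1ΔID livers (−1.05 ± 0.10), where it was the only one of 7 tested to pass. The limma adjusted p of these differences were at most 0.0011.

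Between hyperthyroid WT and L-NCOR1ΔID livers, the PPAR list had 2 genes higher and 6 lower with T3, the LXR list 1 and 3, the FXR list 5 and 2, the LRH-1 list 2 and 1, the ROR list 4 and 0 and the estrogen receptor list 2 (Greb1 included) and 0. Over all genes tested in this comparison, 15.5% passed as higher and 5.7% as lower. At an unadjusted limma p under 0.05, 0 ROR genes and 1 estrogen receptor gene were lower. Shares of all genes at that p by direction were not counted here. In this comparison 6668 of 14017 genes had a limma p no larger than that of Rora (0.046). Cyp7a1, which stands in the LXR, FXR and LRH-1 lists, passed as higher in hyperthyroid WT livers. It was at 68.8 ± 42.5 RPKM there and at 8.63 ± 6.54 RPKM in L-NCOR1ΔID livers (log2 fold change 2.97 ± 0.68, limma adjusted p = 0.0085).

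**Figure D4:**
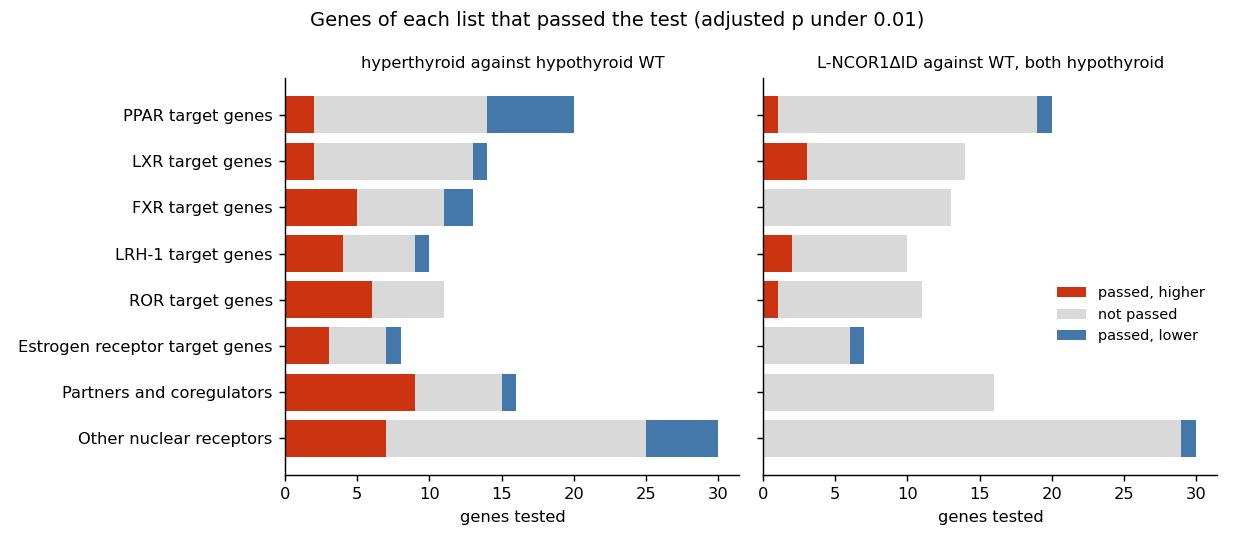
Number of genes tested in each list (x axis) that passed as higher (red), passed as lower (blue) or did not pass (grey), for T3 on the left and L-NCOR1ΔID on the right. ROR target genes had 6 of 11 higher and 0 lower with T3, and LXR target genes had 3 of 14 higher in L-NCOR1ΔID livers.

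The genes whose levels followed each member most closely over the 12 livers were looked up among 10663 genes with a mean of at least 1 RPKM. These correlations describe livers that share groups and libraries, with no test, and a gene with a like difference between groups will score high. Ppard was most like Gstt1 (Pearson r of log2 values 0.987), a glutathione transferase gene, and Rnase2a (0.981). Rnase2a had means of 0.0558 RPKM in hypothyroid WT, 0.217 RPKM in L-NCOR1ΔID and 27.1 RPKM in hyperthyroid WT livers. It reached the mean of 1 RPKM through the hyperthyroid group alone, so its r with a gene higher in that group says little. Esr1 was most like Gfra1 (0.970) and As3mt (0.969), and Pparg most like Zbtb44 (0.977) and Acot4 (0.960). Nr1h3 was followed by Peg3 (0.975) and Armc6 (0.965), Nr1h2 by Slc8b1 (0.941) and Oxa1l (0.935), and Nr1h4 by 1810058I24Rik (0.937) and Zfp445 (0.926). The closest to Nr5a2 were Pccb (0.924) and St6gal1 (0.914), to Rora Samd8 (0.95) and Srd5a3 (0.906), and to Ppara Acads (0.874) and Pmm1 (0.858), the lowest values of the 9.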

How the data were processed

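For RNA-seq the authors used STAR (mm9), kept uniquely aligned reads and had HOMER quantify each RefSeq transcript. The deposited unit is RPKM, with 3 decimals. Positions of acetylated regions, also deposited by the authors, were called with HOMER on H3K9Ac and H3K27Ac ChIP-seq and merged; versions are not given in the sources used here. The authors' DESeq2 results were not used. The 44 ChIP-seq samples were not used as such.

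From 31370 transcripts, 1 that carried no gene name was dropped. Genes reaching 0.1 RPKM in 4 or more of 8 livers were tested with limma 3.58.1 (R 4.3.3, variance trend, log2(RPKM + 0.1), Benjamini-Hochberg over all genes tested), and passed at an adjusted p under 0.01. All 9 members passed the filter on low values. At these depths 0.1 RPKM equals 2.12 to 4.27 reads per kilobase. Replicates are separate livers, and p-values measure the spread between these. The tests were checked on simulated data. Python 3.11.15, numpy 2.4.6, pandas 2.3.3 and matplotlib 3.10.9 were used for the rest. Regions and sequence were placed on NCBIM37 (mm9) with GENCODE M1.

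The members and lists were chosen with earlier results of these data known. Named genes are the 9 members, the 2 genes most correlated with each over 12 livers, and per list and comparison up to 3 passed genes with the smallest adjusted p, with those given beyond this (Fgf21 and Cyp7a1 with their values by group, Cyp8b1, Sdc1, Dio1 and Ncor1) added. Alternatives were a pseudocount of 1 or 0.01 RPKM, no filter, a mean of at least 1 RPKM, all 12 livers in 1 fit, a replicate block, an adjusted p under 0.05, libraries rescaled by their median gene ratio, a fit without the variance trend, the transcript with the highest mean, each liver left out, and region distances of 50 and 200 kb. One gene that the rule names is not reported here.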

Additional observations from a re-analysis of the deposited data

Results flagged for a closer look

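Within groups of 4 livers, 3 of 27 sets of member values had 1 liver far from the other 3, where chance flags about 1 in 20. Nr1h2 in hyperthyroid WT was lowest in replicate 1 (gap of 0.831 of the range). Nr5a2 in L-NCOR1ΔID was highest in replicate 4 (0.863), and without that liver its log2 fold change against hypothyroid WT was 0.10, from 0.17. Esr1 in L-NCOR1ΔID was highest in replicate 2 (0.84).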

How the results depend on the processing

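Of 486 values of the 9 genes under the alternatives, 446 kept direction and side of the threshold, 28 lost and 10 gained a call, and 2 turned direction. Those were Ppara between hyperthyroid WT and L-NCOR1ΔID livers (−0.06), at 0.11 without L-NCOR1ΔID replicate 1 and 0.02 without hyperthyroid WT replicate 1, neither of which passed, and between −0.18 and 0.11 over all 8 fits without 1 liver. With T3, scaling by gene ratios gave 1902 genes higher, 1726 lower and 4 members lower, and an adjusted p under 0.05 gave 5244, 1636 and 3. In L-NCOR1ΔID livers, 118 genes were lower with all 12 livers in 1 fit, 63 were higher without the variance trend, and 344 were higher and 257 lower at an adjusted p under 0.05. Between hyperthyroid WT and L-NCOR1ΔID livers, scaling gave 1102 higher, 1238 lower and 1 member higher, and an adjusted p under 0.05 gave 3995, 1412 and 2 members lower. Beyond the thresholds' own construction, the cause was not tested.

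With the replicate number as a block, which does not pair these livers, 20 genes were higher and 25 lower in L-NCOR1ΔID livers, with 0 members lower by limma, and Nr1h4 (−0.62) had an adjusted p of 0.016. Between hyperthyroid WT and L-NCOR1ΔID livers the block gave 1152 genes higher and 490 lower, with 1 member higher and 0 lower by limma. It changed no member's call with T3. Deviations of same-numbered livers correlated at −0.215 to 0.296, and were best with their own number in 2 of 12 cases.

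Without 1 liver, with T3 2 to 3 members were higher and 1 to 2 lower, and 2438 to 2978 genes higher and 746 to 994 lower. In L-NCOR1ΔID livers 0 members were higher and 1 lower in each fit, and 36 to 110 genes higher and 28 to 77 lower. Between hyperthyroid WT and L-NCOR1ΔID livers 1 to 3 members were higher and 0 to 2 lower, and 1182 to 1905 genes higher and 469 to 767 lower. Ppard, Pparg and Esr1 with T3 and Nr1h4 in L-NCOR1ΔID livers passed in all 8 such fits. Depth limits Esr1 and Pparg most, which had the fewest reads.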
